A study of Mus musculus with 2 samples.

Results

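The 34 genes described here encode proteins of the extracellular matrix and the secreted enzymes, inhibitors and binding proteins that act on it. They were taken by gene symbol from the 27998 genes of the count tables, and all 34 were found. The counts are transcripts of single CD45+ cells, labelled as total CD45+ cells of visceral adipose tissue (VAT, here the perigonadal fat pad), in 1 library of CR mice and 1 library of obese mice. Per the study's methods, both groups were C57BL/6J males bought at an age of 6 weeks and acclimated for 2 weeks. They were then fed a diet with 60% of kcal from fat and 0.3% cholesterol and injected weekly with 5 mg/kg of an antisense oligonucleotide against the LDL receptor, which raises blood cholesterol. The obese group had this diet freely for 24 weeks, and the CR group was afterwards given 70% of its ad libitum intake of the same diet for 2 weeks. The CR sample's diet label reads life-long caloric restriction, which differs from that description. The number of mice behind each library is not given in the sources used here, and with 1 library per group no difference below has a replicate check.

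Fibroblasts and the adipocyte progenitors among them make most of the interstitial matrix of fat, a mesh of fibrillar collagens, microfibrils and small proteoglycans. Endothelial cells rest on a basement membrane of collagen IV and laminins, and mural cells (pericytes and smooth muscle cells) share it. Matrix metalloproteinases cut these proteins, tissue inhibitors of metalloproteinases (TIMPs) hold them in check, and lysyl oxidases cross-link collagen and elastin. Leukocytes make little collagen, whereas macrophages are known to make fibronectin and some TIMPs. In droplet data, RNA from broken cells is free in the suspension and is counted in cells that do not make it, so that a low count of a matrix gene in a leukocyte can have either source.

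Of the 34 genes, 21 had a promoter window of 250 bases before and 50 bases after the start in the RefSeq table (GRCm38.p6). The bases before the start are shown for Igfbp4 and Timp1, 2 of the 4 genes that stand apart from the rest in leukocytes below, Fn1 having no window there and that of Timp2 overlapping annotated exons. No exon of GENCODE M21 reaches into either stretch. Igfbp4 is read from chr11:99040994-99041243 and Timp1 from chrX:20869916-20870165, both on the plus strand and 5′ to 3′, with matches on either strand to the motif TATAAA or to CCAAT or to GGGCGG in capitals.
Igfbp4: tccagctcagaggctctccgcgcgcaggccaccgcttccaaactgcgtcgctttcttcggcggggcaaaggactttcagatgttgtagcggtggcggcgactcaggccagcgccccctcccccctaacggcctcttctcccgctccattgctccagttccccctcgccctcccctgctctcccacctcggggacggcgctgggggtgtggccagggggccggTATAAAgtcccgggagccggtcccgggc
Timp1: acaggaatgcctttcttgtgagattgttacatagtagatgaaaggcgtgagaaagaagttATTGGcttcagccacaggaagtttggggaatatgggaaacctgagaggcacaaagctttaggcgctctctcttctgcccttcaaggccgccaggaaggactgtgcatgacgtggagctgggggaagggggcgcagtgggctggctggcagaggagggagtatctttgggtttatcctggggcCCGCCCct
Igfbp4 held TATAAA with its first letter 28 bases before the start. Timp1 held CCAAT and GGGCGG on the opposite strand, at 190 and 8 bases before the start. In the windows of the 21 genes, CCAAT was found in 7, GGGCGG in 13 and TATAAA (Col3a1, Igfbp4, Igfbp6 and Mmp3) in 4. Over all 32851 windows of the table these motifs were found in 37.4%, 35.7% and 13.6%. The former are counts of genes and the latter shares of single windows, so they cannot be compared directly. A match is a match of letters, with no measure of binding here. Col4a1 and Col4a2, the chains of collagen IV that are compared across cells below, face away from each other on chromosome 8. In the same table Col4a1 starts at 11312826 on the minus strand and Col4a2 at 11312805 on the plus strand, so that their first 22 bases lie over each other.

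The CR library held 3562 barcodes and 19696476 unique molecular identifiers (UMIs, each a transcript counted once), with a median of 4335 UMIs per barcode, and the obese library held 5795 barcodes and 42948242 UMIs, with a median of 6379. After filters on genes, UMIs and mitochondrial share, 2987 CR and 5262 obese cells remained, and 28 barcodes occurred in both libraries. Cells were gated with marker genes outside the 34. The fibroblast gate took 279 CR cells (9.34% of those kept, exact binomial interval 8.32 to 10.4) and 88 obese cells (1.67%, 1.34 to 2.06). The endothelial gate took 198 CR and 19 obese cells, and the mural gate 38 CR and 2 obese cells. The 10 leukocyte classes together held 2322 CR and 4962 obese cells. These shares depend on the sort and are not shares of the tissue.

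By their transcripts the cells in the fibroblast, endothelial and mural gates did not look like leukocytes. The label names a sort on CD45 protein, which transcripts do not measure. The study likewise left out clusters of non-hematopoietic origin without CD45 transcripts. Its authors hold contamination during the sort to be likely, and surface CD45 or transdifferentiated cells to be possible. Ptprc, which encodes CD45, had a UMI in 9.32% of CR and 11.4% of obese fibroblast-gated cells, against 83.2% of CR and 79.5% of obese leukocytes. After every cell was thinned to 1500 UMIs the shares were 1.43% and 6.82% in fibroblast-gated cells, against 51.5% and 35.8% in leukocytes. Pdgfra, the receptor that marks fibroblasts and progenitors, stood at 236 CPM (the UMIs of a gene per 1000000 UMIs of a gate) in CR and 243 CPM in obese fibroblast-gated cells, against 1.82 CPM in CR and 0.289 CPM in obese leukocytes. Cd74, an abundant transcript of antigen-presenting cells, stood at 455 and 810 CPM in the CR and obese fibroblast-gated cells, against 17155 and 25815 CPM in leukocytes. The mural marker Acta2 was at 25.5 CPM in CR and 17.2 CPM in obese fibroblast-gated cells, against 7247 CPM in CR mural-gated cells. Members led the fibroblast gate: of its 10 genes with the highest fold over other cells, 6 in CR and 9 in obese were among the 34.

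The 34 genes made up 6.76% of all UMIs of CR and 6.96% of those of obese fibroblast-gated cells. Decorin (Dcn), a small leucine-rich proteoglycan that binds collagen fibrils, was the highest in both libraries, at 22364 CPM in CR (39520 UMIs, 95% counting interval 22144 to 22585) and 15640 CPM in obese (8168 UMIs, 15303 to 15983). It had a UMI in 100% of fibroblast-gated cells of both libraries, with a median per cell of 216 counts per 10000 UMIs in CR and 150 in obese. UMIs tag the 3′ end of a transcript, so levels were compared between genes without division by length.

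Next in order stood the collagen-binding glycoprotein osteonectin (Sparc), at 5184 CPM in CR and 7200 CPM in obese fibroblast-gated cells. Collagen III (Col3a1), the fibrillar collagen of soft tissue, stood at 4514 CPM in CR and 7701 CPM in obese fibroblast-gated cells. After these came Igfbp7 at 3675 CPM in CR and 3303 CPM in obese, and Clec3b (tetranectin) at 3557 CPM in CR and 4000 CPM in obese. In CR, Sparc was above Col3a1 and Igfbp7 above Clec3b, while in obese both pairs stood in the other order. The counting intervals of Igfbp7 (3587 to 3766) and Clec3b (3470 to 3646) overlapped in CR.

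Collagen I (Col1a1 and Col1a2) stood at 1270 and 2209 CPM in CR and at 1781 and 2926 CPM in obese fibroblast-gated cells. The less abundant collagens V, VI, XIV and XV ran from 170 CPM (Col5a1) to 843 CPM (Col6a1) in CR, and from 213 CPM (Col15a1) to 1095 CPM (Col6a1) in obese. At the low end of the 34 stood Lox, a lysyl oxidase, at 125 CPM in CR and 159 CPM in obese, and Mmp3, a metalloproteinase, at 156 CPM in CR and 124 CPM in obese. Mmp3 was also unevenly spread, with a UMI in 12.9% of CR and 13.6% of obese fibroblast-gated cells, whereas Lox had one in 40.9% of CR and 30.7% of obese cells at a like level. Mgp, an inhibitor of calcification, was high in some cells and absent from others, with a median of 7.46 counts per 10000 UMIs of a cell in CR and 3.17 in obese and a lower quartile of 0 in both.

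**Figure D1:**
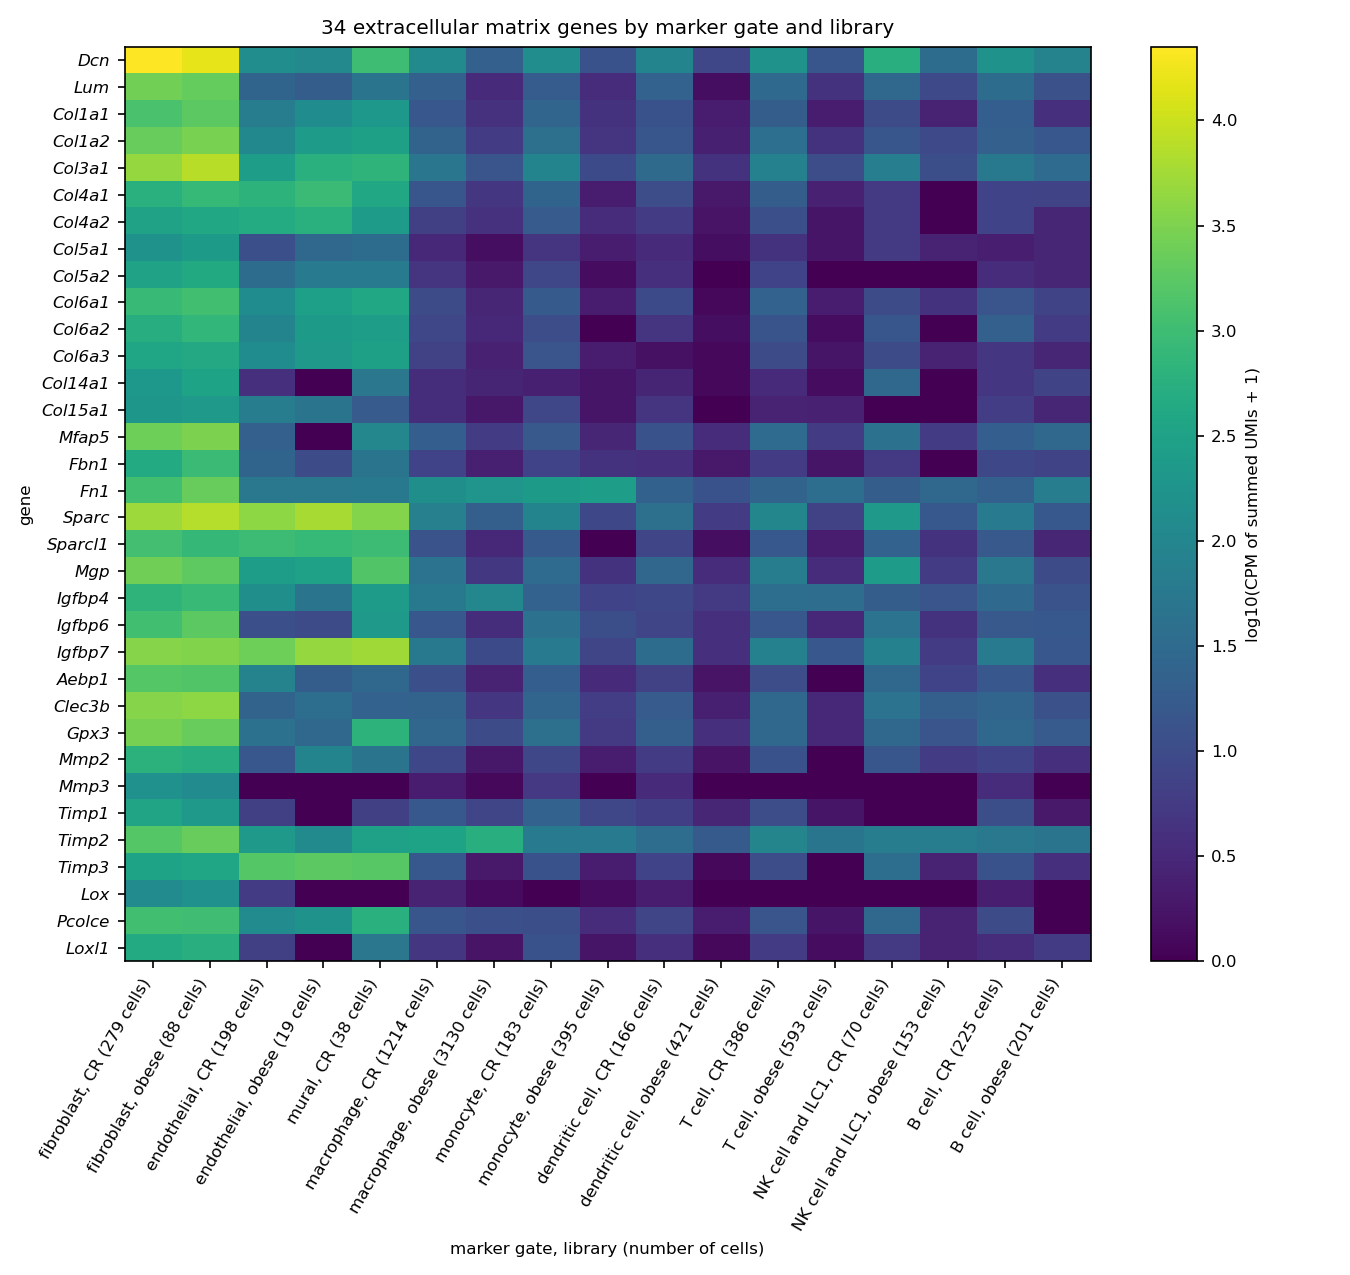
Level of each of the 34 genes (rows) in each marker gate and library (columns, with the number of cells), as log10 of CPM plus 1 on a colour scale. The 2 fibroblast columns are the brightest for most genes, Sparc, Igfbp7, Timp3 and Sparcl1 are also bright in the vessel columns, and Timp2, Igfbp4 and Fn1 stand out in the macrophage columns.

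Vessel cells carried a narrower set. Sparc, Igfbp7 and Timp3, an inhibitor that stays bound to the matrix, were the 3 highest members in endothelial-gated cells of both libraries. Sparc stood at 4089 CPM in CR and 6052 CPM in obese endothelial-gated cells, and Igfbp7, an insulin-like growth factor binding protein of vessel walls, at 2471 and 4555 CPM. Timp3 stood at 1583 CPM in CR and 1789 CPM in obese endothelial-gated cells, with a UMI in 97.0% of the 198 CR and in 100% of the 19 obese cells. In CR mural-gated cells Igfbp7 led at 5301 CPM (932 UMIs), followed by Sparc at 3544 CPM and Timp3 at 1684 CPM. The 2 obese mural-gated cells held 97 UMIs of Sparc, 70 of Igfbp7 and 32 of Timp3. They were not clearly mural, with a median of 11 endothelial and 9 mural markers detected. They had no UMI of Acta2, while Rgs5, a top gene of the mural gate, stood at 3821 CPM. Cldn5, a top gene of the endothelial gate, stood at 1545 CPM. Mixtures of stromal cells were not set aside, and whether these cells are such was not tested.

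Set against endothelial-gated cells of the same library, 28 of the 34 genes were at least 2-fold higher in CR fibroblast-gated cells (5 CPM added to each side) and 27 in obese ones, beside 10.5% of all genes tested in CR and 18.6% in obese. At least 2-fold lower was 1 of the 34 in each library, beside 15.3% of all genes in CR and 15.6% in obese. That gene was Timp3, at 336 CPM in fibroblast-gated against 1583 CPM in endothelial-gated cells of CR, and at 379 against 1789 CPM in obese. The ratio of these levels was 0.21 in both libraries, with intervals of 0.193 to 0.233 in CR and 0.173 to 0.259 in obese. Dcn was 163-fold higher in fibroblast-gated than in endothelial-gated cells of CR (139 to 193) and 143-fold higher in obese (81.7 to 276). Single cells weighed on the endothelial levels of fibroblast genes. Of the summed endothelial UMIs of Dcn, Lum, Col1a1, Col1a2 and Col3a1, 8 of 198 CR cells held 45.0% and 2 of 19 obese cells 85.7%. Without those cells the sum fell from 604 to 360 CPM in CR and from 1086 to 193 CPM in obese. Sparc, Sparcl1, Igfbp7, Col4a1 and Col4a2 differed by less than 2-fold between these gates in both libraries, and Col6a3 did so in obese. Within CR, mural-gated cells were at least 2-fold above endothelial-gated cells in 14 of 28 members tested, beside 9.23% of all genes, and at least 2-fold below in 2, beside 15.8%. Dcn was at 984 CPM in mural-gated and 137 CPM in endothelial-gated CR cells. Fibroblast-gated cells were at least 2-fold above leukocytes in 34 of 34 genes in both libraries, beside 15.9% of all genes in CR and 16.1% in obese.

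The collagen IV chains followed each other across these gates. Col4a1 made up 64.1% of the UMIs of the pair in CR fibroblast-gated cells (exact interval 61.7 to 66.5) and 68.1% in obese ones (64.3 to 71.7). In endothelial-gated cells it made up 57.5% in CR (54.6 to 60.3) and 61.6% in obese (53.7 to 69.1). In both libraries the share was thus lower in endothelial-gated cells, and in obese the intervals of the 2 gates overlapped. For collagen I, Col1a1 made up 36.5% of the pair in CR (35.3 to 37.7) and 37.8% in obese (35.9 to 39.8) fibroblast-gated cells, and the intervals overlapped.

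Within the CR endothelial gate, 16 of the 198 cells had at least 20 UMIs of Ccl21a, a chemokine of lymphatic endothelium, and none of the 19 obese cells did. This split was made after the values were seen. These 16 cells held 11 UMIs of Sparc (119 CPM, against 4470 CPM in the other 182 cells) and 13 of Igfbp7 (140 against 2695 CPM). Aebp1, a collagen-binding protein of fibroblasts, stood at 701 CPM in the 16 cells against 27.0 CPM in the others, and Timp2 at 1176 against 120 CPM. Of 26 members tested, 14 were at least 2-fold lower in them, beside 23.7% of all genes, and 4 were at least 2-fold higher, beside 7.19%.

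The comparison of CR with obese asks what 2 weeks of reduced intake left of the transcripts of an established obesity. In fibroblast-gated cells the 34 genes summed to nearly the same level, 67577 CPM in CR and 69633 CPM in obese (log2 ratio −0.04). Of the 34, 23 were below 0 on the log2 scale and 11 above, with a median of −0.31 beside −0.02 over all 8342 genes tested. Intervals for counting error lay below 0 for 20, above 0 for 9 and across 0 for 5. The shares of all genes by sign or interval were not computed, and intervals are narrow where UMIs are many. These counts therefore do not show a shift particular to the 34. None of the 34 was at least 2-fold higher, beside 2.4% of all genes, and 2 were at least 2-fold lower, beside 1.11%. Fewer cells of a kind of fibroblast and less RNA per cell cannot be told apart in these sums.

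The 2 that were past 2-fold build the fibres on which microfibrils and collagen assemble. Fibronectin (Fn1, chromosome 1, 71585520 to 71653200, GRCm38) stood at 1064 CPM in CR fibroblast-gated cells (1881 UMIs) and at 2191 CPM in obese ones (1144 UMIs), a log2 ratio of −1.04 (interval −1.14 to −0.93). Fibrillin 1 (Fbn1), the backbone of microfibrils, stood at 451 CPM in CR (797 UMIs) and 927 CPM in obese (484 UMIs), a log2 ratio of −1.03 (−1.19 to −0.87). Both calls were lost under several other settings given in the closing section. Thinned to 1500 UMIs, Fn1 had a UMI in 54.5% of CR and 79.5% of obese fibroblast-gated cells, and Fbn1 in 40.1% and 51.1%.

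The fibrillar collagens lay on the same side, at log2 ratios of −0.77 for Col3a1, −0.49 for Col1a1, −0.40 for Col1a2, −0.46 for Col5a1 and −0.45 for Col5a2. All 12 collagen chains among the 34 were below 0, and the interval of 11 of them lay below 0, the exception being Col15a1 at −0.10 (−0.41 to 0.21). As above, no share of all genes was computed for this rule. Above 0 stood the proteoglycans Dcn (0.52) and Lum (0.37), the Sparc relative Sparcl1 (0.54), Mgp (0.43), the plasma peroxidase Gpx3 (0.40) and Mmp2 (0.30), a gelatinase. The highest was Timp1, an inducible inhibitor of metalloproteinases, at 351 CPM in CR and 213 CPM in obese (log2 ratio 0.71, interval 0.42 to 1.01). The other TIMPs went the other way, Timp2 at −0.41 (−0.51 to −0.31) and Timp3 at −0.17 with an interval across 0 (−0.40 to 0.06).

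**Figure D2:**
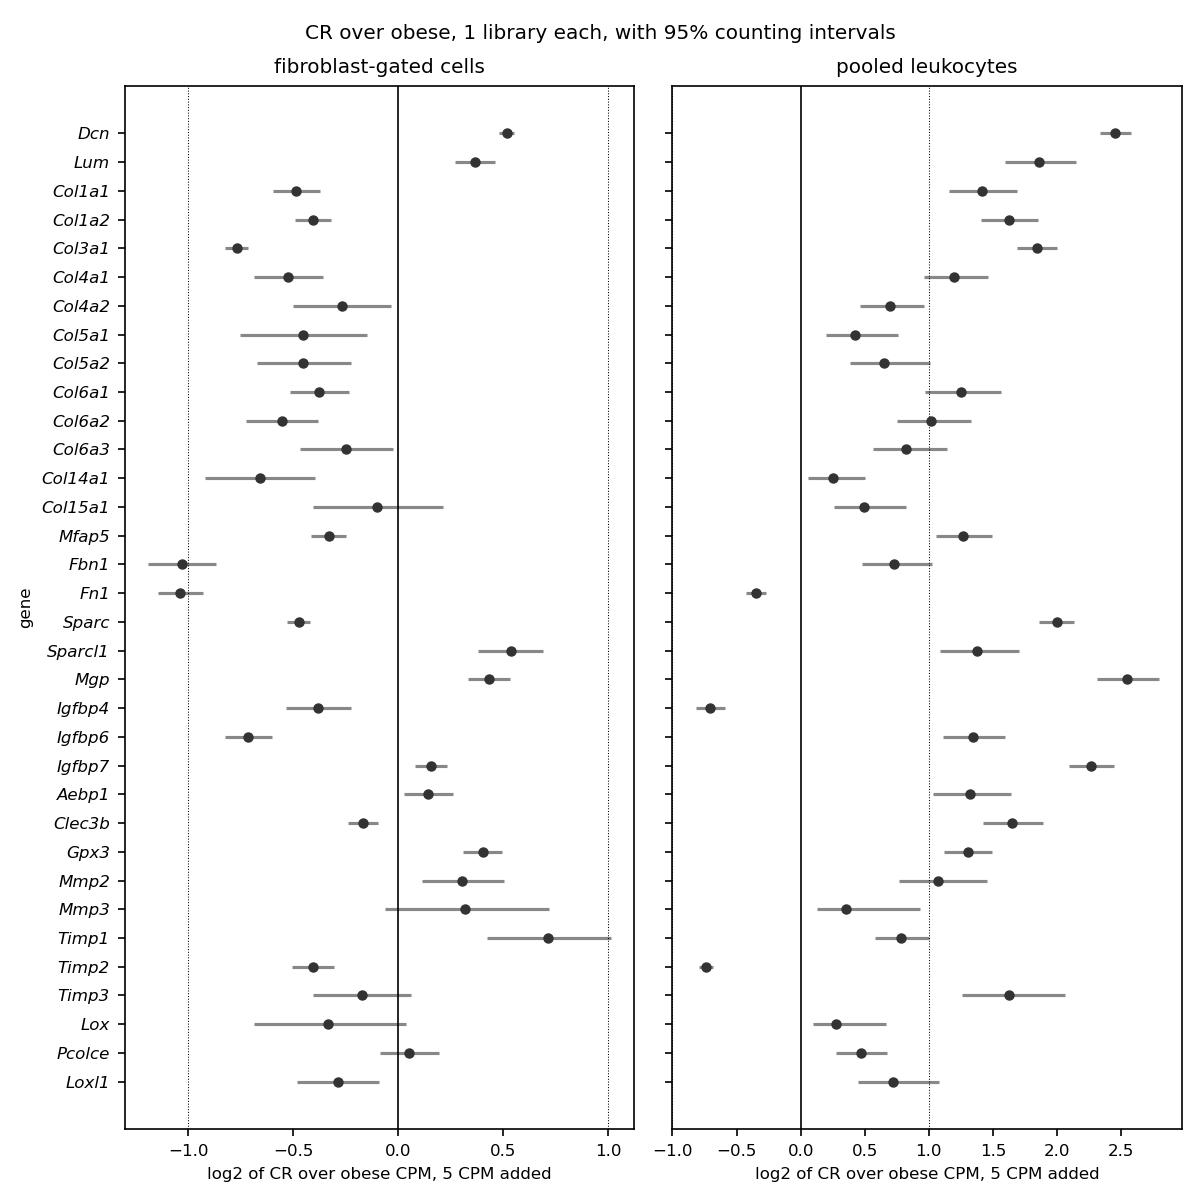
Log2 of CR over obese CPM (5 CPM added to each side) for each of the 34 genes, in fibroblast-gated cells (left) and pooled leukocytes (right), with 95% counting intervals as bars and dotted lines at 2-fold. In fibroblast-gated cells the points lie between −1.04 for Fn1 and 0.71 for Timp1, and in leukocytes 31 lie above 0.

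In endothelial-gated cells the obese side rested on 19 cells and 109543 UMIs, and values are given side by side only. The mural marker Acta2 stood at 29.3 CPM in CR and 466 CPM in obese endothelial-gated cells, and the part of mural RNA in these values was not tested. Col4a1 stood at 648 CPM in CR and 922 CPM in obese, and Col4a2 at 480 and 575 CPM. Igfbp4, Aebp1 and Timp2 stood higher in CR, at 143, 86.1 and 213 CPM, against 45.6, 18.3 and 119 CPM in obese. Without the 16 Ccl21a-rich cells, Aebp1 stood at 27.0 CPM and Timp2 at 120 CPM in CR, while Igfbp4 stood at 133 CPM. Mfap5, Col14a1, Timp1, Lox and Loxl1 had no UMI in the 19 obese cells, where 3 UMIs would be 27.4 CPM.

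Among fibroblast-gated cells the 34 genes were not evenly shared. Pi16 and Dpp4 mark a class of progenitors in the connective tissue of mouse fat, and a UMI of either was found in 120 of 279 CR cells and 49 of 88 obese cells. Both genes were among the 14 markers of the gate, and the split was made after values were seen. In cells with such a UMI, 9 genes were higher in both libraries with both counting intervals above 1, namely Col3a1, Col14a1, Mfap5, Fbn1, Fn1, Igfbp4, Igfbp6, Clec3b and Timp2. Another 13 were lower in both, among them Dcn, Col4a1, Col4a2, the 3 collagen VI chains, Sparcl1, Gpx3, Mmp2, Mmp3 and Lox. Over all genes tested, both intervals lay above 1 for 5.12% and below 1 for 3.33%. In all, 29 of 34 had the same sign in both libraries, beside 59.7% of all genes.

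Past 2-fold in both libraries were 4 genes of the cells with Pi16 or Dpp4. Collagen XIV (Col14a1), which sits on the surface of collagen fibrils, stood at 328 CPM in those cells against 101 CPM in the others in CR, and at 445 against 154 CPM in obese. Igfbp6, which binds insulin-like growth factor II, stood at 1520 against 719 CPM in CR and at 2424 against 838 CPM in obese. Fn1 stood at 1507 against 679 CPM in CR and at 2863 against 1171 CPM in obese. Fbn1 stood at 619 against 305 CPM in CR and at 1201 against 511 CPM in obese. Each of these pairs differed beyond its counting interval, and Fn1 and Fbn1 were lower in CR than in obese on either side of the split. At least 2-fold higher were 4 of 34 in CR, beside 1.81% of all genes, and 4 of 34 in obese, beside 4.44%. At least 2-fold lower were 1 of 34 in CR, beside 1.53%, and 5 of 34 in obese, beside 4.17%. Mmp3 was lower in cells with Pi16 or Dpp4 in both libraries, at 98.5 against 206 CPM in CR and 28.6 against 270 CPM in obese. The share of cells with a UMI of Mmp3 was close on the 2 sides, at 12.5% against 13.2% in CR and 12.2% against 15.4% in obese. The difference thus lay mostly in the UMIs of a small share of cells, and counting intervals do not cover spread between cells.

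**Figure D3:**
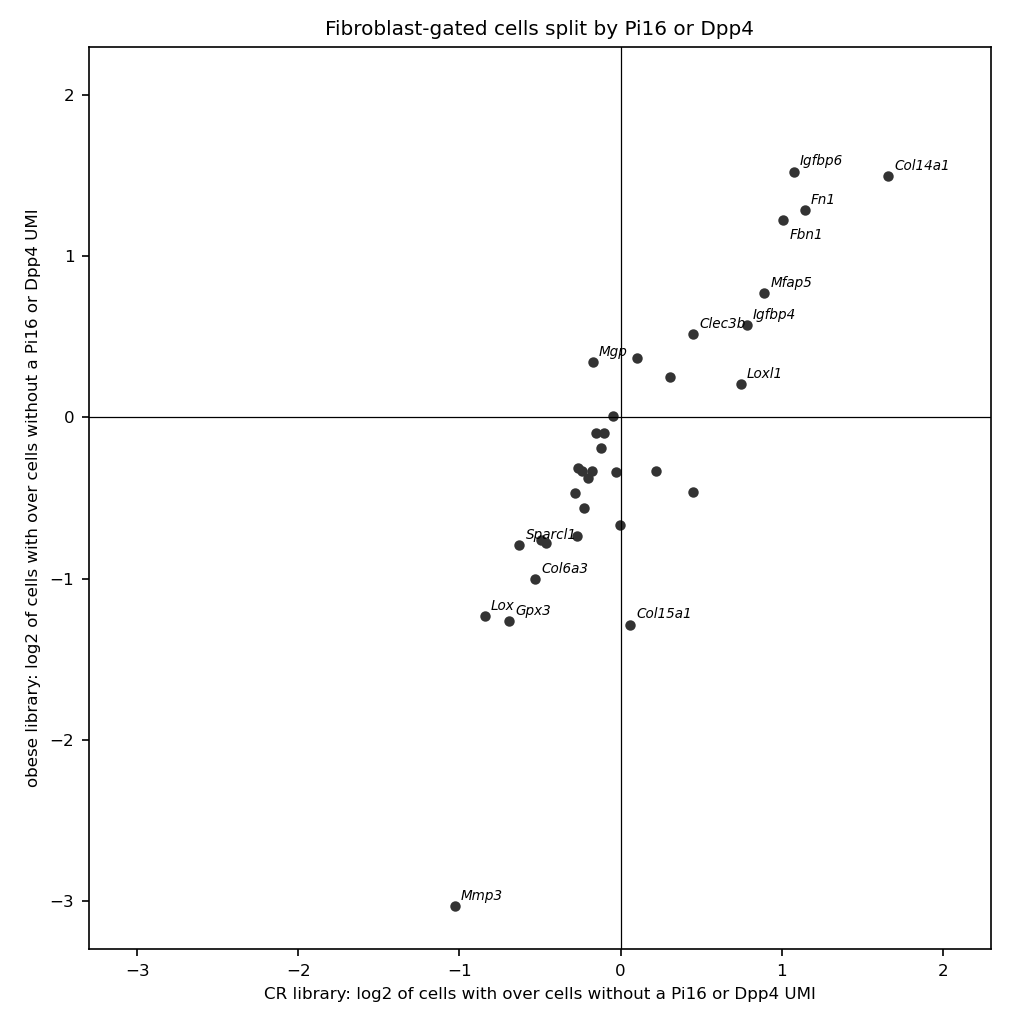
Log2 ratio of fibroblast-gated cells with a UMI of Pi16 or Dpp4 over those without, for the CR library (horizontal axis) and the obese library (vertical axis), 5 CPM added, 1 point per gene with names for those away from the centre. Col14a1, Igfbp6, Fn1 and Fbn1 lie past 1 on both axes and Mmp3 lies lowest, at −1.03 in CR and −3.03 in obese.

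In leukocytes the 34 genes were present at low levels, summing to 1047 CPM in CR and 726 CPM in obese. Of the 34, 19 were at least 2-fold higher in CR leukocytes, beside 1.42% of all genes tested, and none was at least 2-fold lower, beside 0.233%. The median log2 ratio was 1.14, beside 0.10 over all 12903 genes, and 31 genes lay above 0. Those below 0 were Fn1, Timp2 and Igfbp4.

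A sum of 5 genes of fibroblasts, Dcn, Col1a1, Col1a2, Col3a1 and Lum, served as a tracer of fibroblast RNA. In leukocytes the tracer stood at 250 CPM in CR and 41.7 CPM in obese, a ratio of 5.99. The fibroblast-gated share of kept cells had a CR over obese ratio of 5.59, and the tracer summed over all kept cells one of 7.59. By class the tracer ratio was 5.10 in macrophages, 10.3 in monocytes, 12.4 in dendritic cells, 11.0 in T cells, 11.1 in NK cells and ILC1, and 2.00 in B cells. The CR tracer level was higher in each of these 6 classes. Single cells weighed on these ratios, as 2 obese B cells with at least 10 tracer UMIs held 83.9% of the tracer of their class, 1 such NK cell or ILC1 68.9% in CR and 1 such cell 54.1% in obese, 3 CR monocytes 50.9% and 8 obese macrophages 48.1%. T cells, which are not known to make these genes, had a tracer UMI in 59.3% of CR and 10.3% of obese cells, at a median depth of 2675 and 3435 UMIs, and macrophages in 69.4% and 16.0%, at 5853 and 7399 UMIs. Thinned to 1500 UMIs, the shares were 34.7% and 3.04% in T cells and 27.3% and 4.06% in macrophages. Leukocytes with at least 10 tracer UMIs numbered 19 in CR and 14 in obese, and held 21.4% and 47.4% of the tracer there. Without them the tracer stood at 198 CPM in CR and 22.0 CPM in obese, a ratio of 9.02. By class the ratio without them was 8.40 in macrophages, 8.41 in monocytes, 10.7 in dendritic cells, 12.0 in T cells, 7.60 in NK cells and ILC1, and 11.0 in B cells. Cells with a stromal and a leukocyte score close to each other (28 in CR and 14 in obese) were set aside beforehand. Without the 5% of cells with the highest doublet scores, 19 of the 34 genes were again at least 2-fold higher in CR leukocytes.

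The 19 genes past 2-fold in leukocytes are given by role. Of the proteoglycans, Dcn stood at 131 CPM in CR and 19.8 CPM in obese leukocytes, and Lum at 22.5 and 2.57 CPM. Col3a1 led the collagens, at 56.0 CPM in CR and 12.0 CPM in obese leukocytes. Col1a2 (24.9 and 4.67 CPM), Col1a1 (15.5 and 2.70), Col4a1 (13.8 and 3.18), Col6a1 (11.1 and 1.76) and Col6a2 (8.61 and 1.71) followed with the same direction. Of the glycoproteins, Sparc stood at 77.4 CPM in CR and 15.6 CPM in obese leukocytes, Mgp at 46.7 and 3.83 CPM, Sparcl1 at 12.3 and 1.68 CPM, and the microfibril protein Mfap5 at 19.2 and 5.04 CPM. Igfbp7 stood at 58.6 CPM in CR and 8.24 CPM in obese leukocytes, and Igfbp6 at 16.6 and 3.52 CPM. The remainder were Gpx3 (27.3 CPM in CR and 8.09 CPM in obese), Clec3b (23.4 and 4.07), Timp3 (13.2 and 0.893), Aebp1 (11.5 and 1.63) and Mmp2 (7.51 and 0.945). In every one the CR level was higher and the counting interval of the log2 ratio lay above 0. For 11 genes the counting intervals in fibroblast-gated cells lay on the opposite side of 0, and these are given in the closing section.

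To compare each gene with the tracer, its ratio to the tracer in leukocytes was divided by the same ratio over the fibroblast, endothelial and mural gates of the same library. A quotient of 1 means that the ratio to the tracer was the same in leukocytes as in the stromal gates, and the make-up of the free RNA itself was not measured. For the 25 genes that are neither in the tracer nor among the 4 named next, the quotient had a median of 1.55 in CR (0.88 to 2.24) and 1.32 in obese (0.74 to 5.34). Within 2-fold of 1 were 24 of these 25 in CR, all but Mgp, and 18 in obese, where Col4a1, Col4a2, Col6a3, Col14a1, Col15a1, Gpx3 and Pcolce were higher. The 4 genes at least 2-fold above in both libraries, with intervals above 1, were Timp2, Fn1, Igfbp4 and Timp1, beside 97.3% of all genes tested. The quotient was 17.0 in CR and 126 in obese for Timp2, 14.3 and 49.8 for Fn1, 7.45 and 60.3 for Igfbp4, and 5.11 and 19.6 for Timp1. In leukocytes without any UMI of a stromal marker (714 CR and 3360 obese cells) these 4 stood at 16.9, 13.8, 8.35 and 3.19 in CR and at 249, 106, 123 and 36.8 in obese. Leaving out the other cells also lowered the tracer, from 250 to 229 CPM in CR and from 41.7 to 21.5 CPM in obese. A lower tracer raises every quotient, so the higher obese values are no further evidence.

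**Figure D4:**
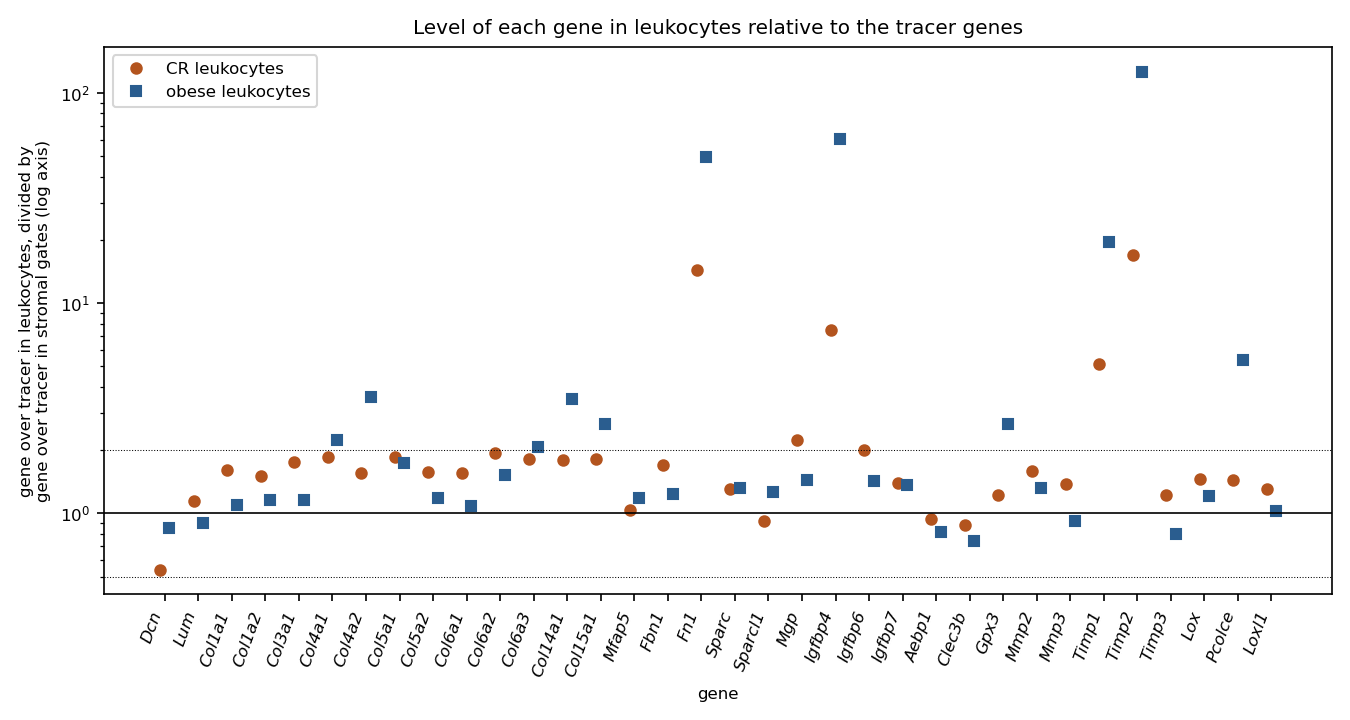
Quotient for each of the 34 genes (horizontal axis) of its ratio to the tracer in leukocytes over its ratio to the tracer in stromal gates, on a log axis, for CR (circles) and obese (squares), with lines at 1 and at 2-fold. Fn1, Igfbp4, Timp1 and Timp2 lie above 2 in both libraries, and most others lie near 1.

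The same genes differed between leukocyte classes. With the ratio to the tracer in T cells as the measure, 6 genes were at least 2-fold higher in the same class of both libraries with intervals above 1. These were Timp2 and Igfbp4 in macrophages, Fn1 and Timp1 in macrophages and monocytes, and Igfbp6 and Aebp1 in monocytes. The classes are those of the gates, and the monocyte gate was mixed, as given below. Over all genes tested the same rule was met by 26.7%, so that a count of 6 of 34 is not above the background. Aebp1 rested on 6 UMIs in obese monocytes and none in obese T cells, and it was not called in leukocytes without stromal marker UMIs or with under 10 tracer UMIs. Timp1 was not called in leukocytes without stromal marker UMIs either.

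The macrophage- and monocyte-gated cells of the 2 libraries fell into largely separate clusters. In clusters built without the 34 genes, 88.1% of the 1214 CR macrophages lay in clusters with at least 10 times as many CR as obese cells of that gate, and 96.9% of the 3130 obese macrophages in clusters with the opposite ratio. For monocytes the shares were 83.1% of 183 CR and 90.4% of 395 obese cells. The monocyte gate was mixed. Of its CR cells, 61 lay in a cluster led by Cd209a, which is on the dendritic cell marker list. Another 56 lay in a macrophage cluster led by Spp1 and Arg1. Of its obese cells, 108 lay in a cluster led by Cd209a and 63 in a macrophage cluster led by Retnla. The main clusters of CR macrophages were led by Lipg and Fcgr4 (655 cells) and by Spp1 and Arg1 (362), and those of obese ones by Apoe (1125), Gpnmb (519) and Retnla (415). Timp2 stood at 135 and 598 CPM in those CR clusters and at 615, 608 and 210 CPM in those obese ones, and Fn1 at 22.1 and 277 CPM against 55.3, 115 and 706 CPM. The levels of CR and obese cells of these gates are therefore given side by side, with no ratio between them.

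Timp2 (chromosome 11, 118301069 to 118355740), which inhibits metalloproteinases and also helps to activate Mmp2, was the highest of the 34 in macrophages. It stood at 336 CPM in CR macrophages (2721 UMIs) and 524 CPM in obese macrophages (13831 UMIs). In monocytes it stood at 58.3 CPM in CR and 63.1 CPM in obese, in T cells at 95.8 and 48.7 CPM, and in B cells at 55.1 and 46.6 CPM. Macrophages were thus the highest class in both libraries. After thinning, a UMI of Timp2 was found in 45.5% of obese macrophages against 3.48% of obese B cells, at median depths of 7399 and 3791 UMIs before thinning.

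Igfbp4, a binding protein that limits insulin-like growth factors, stood at 57.5 CPM in CR macrophages (466 UMIs) and 100.3 CPM in obese macrophages (2649 UMIs). It stood at 21.9 CPM in CR and 6.39 CPM in obese monocytes, and at 36.0 and 34.2 CPM in T cells. In obese, macrophages and T cells were above the other classes, and B cells stood at 11.9 CPM.

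By gate, Fn1 was highest in monocytes, at 234 CPM in CR (321 UMIs) and 261 CPM in obese (695 UMIs). Within that gate it differed by cluster, of which the largest are given. In CR it stood at 586 CPM in the macrophage cluster led by Spp1 and Arg1. The CR clusters led by Cd209a and by Pglyrp1 stood at 19.3 and 26.0 CPM, near the T cell level. In obese it stood at 686 CPM in the macrophage cluster led by Retnla. The obese clusters led by Plac8 and by Cd209a stood at 270 and 41.7 CPM. Macrophages stood at 147 CPM in CR and 182 CPM in obese, and T cells at 22.9 and 35.7 CPM. After thinning, a UMI of Fn1 was found in 15.8% of CR and 18.5% of obese monocytes, against 2.85% of CR and 2.36% of obese T cells. Timp1 was lower throughout, at 22.6 CPM in CR and 7.52 CPM in obese monocytes, 15.0 and 7.08 CPM in macrophages, and 9.83 and 0.743 CPM in T cells. Igfbp6 stood at 42.3 CPM in CR and 10.1 CPM in obese monocytes, against 13.9 and 2.23 CPM in T cells.

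Within macrophage-gated cells the genes went with different kinds of cell. Lyve1 and Folr2 mark resident macrophages, Ccr2 is the chemokine receptor of monocyte-derived cells and Fcgr4 an Fc receptor, and cells were split by a UMI of each after values were seen. Ccr2 was itself a monocyte marker and Fcgr4 a macrophage marker of the gates. Igfbp4 stood at 355 CPM in CR macrophages with Lyve1 (37 cells) against 45.6 CPM without, and at 346 CPM in obese ones (183 cells) against 86.4 CPM. Timp2 stood at 820 CPM with Lyve1 against 316 CPM without in CR, and at 1005 against 496 CPM in obese. Both genes were thus higher with Lyve1 in both libraries. With Folr2 (319 CR and 1468 obese cells), Timp2 stood at 633 CPM against 177 CPM without in CR, and at 683 against 345 CPM in obese. Folr2 UMIs were found in a smaller number of CR macrophages, 319 of 1214, than of obese macrophages, 1468 of 3130.

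Fn1 went the opposite way. It stood at 89.6 CPM in CR macrophages with Folr2 against 177 CPM without, and at 96.8 against 277 CPM in obese. With Ccr2 (227 CR and 1373 obese cells) it stood at 380 CPM against 69.3 CPM without in CR, and at 253 against 119 CPM in obese. With Fcgr4 (1043 CR and 1716 obese cells) it stood at 134 CPM against 224 CPM in CR, and at 118 against 261 CPM in obese. For Fn1 the order was thus the same in both libraries for all 3 splits. Other results differed between the libraries. With Fcgr4, Timp2 stood at 298 CPM against 560 CPM without in CR, and at 520 against 529 CPM in obese, where the interval of the ratio held 1 (0.950 to 1.02). With Ccr2, Igfbp4 stood at 65.4 CPM against 54.8 CPM without in CR, with an interval that held 1 (0.968 to 1.46). In obese it was lower with Ccr2, at 80.9 against 117 CPM.

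**Figure D5:**
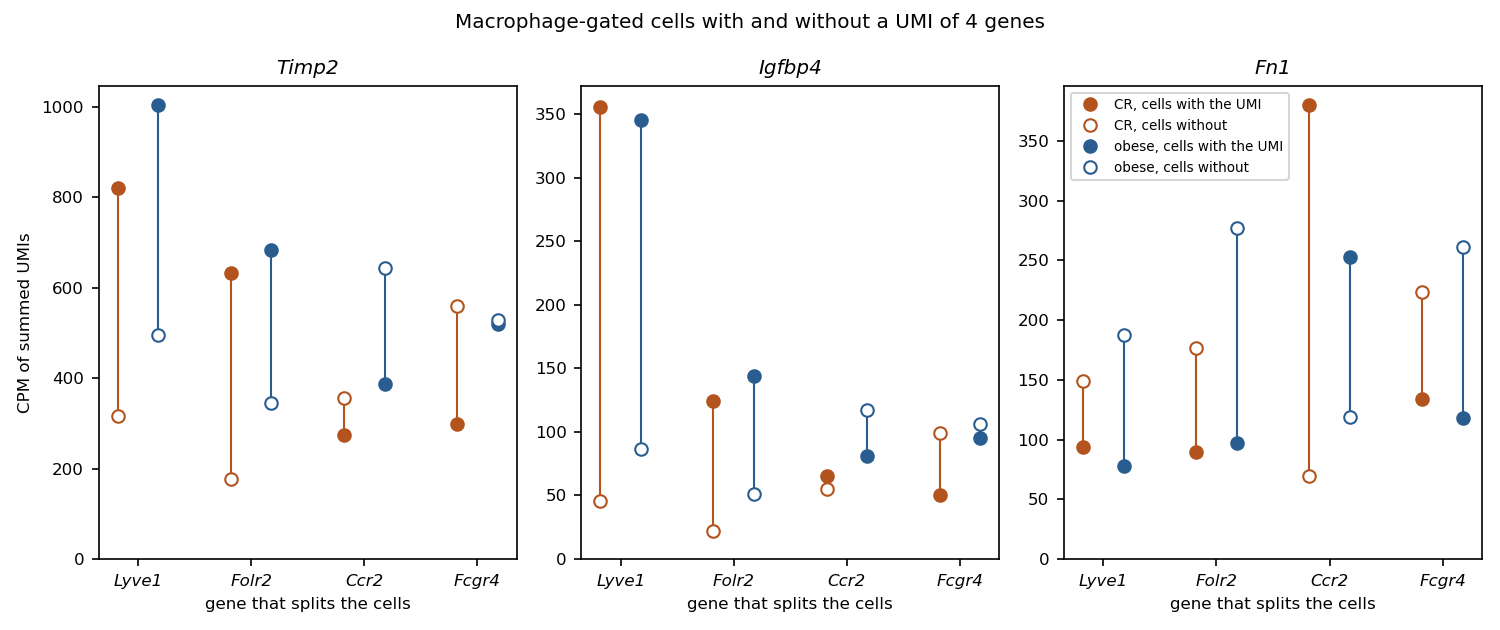
CPM of Timp2, Igfbp4 and Fn1 in macrophage-gated cells with (filled) and without (open) a UMI of Lyve1, Folr2, Ccr2 or Fcgr4, CR in orange on the left and obese in blue on the right of each pair. Timp2 and Igfbp4 are higher in cells with Lyve1 or Folr2, and Fn1 is lower there and higher in cells with Ccr2.

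Among T cells, Igfbp4 was higher in those with a UMI of Lef1, a transcription factor of naive T cells. It stood at 73.8 CPM with Lef1 (94 cells) against 22.3 CPM without in CR, and at 93.5 CPM (187 cells) against 5.51 CPM in obese. The ratio was 3.30 in CR (1.75 to 6.31) and 17.0 in obese (8.77 to 36.7). Timp2 in T cells with and without Lef1 stood at 76.9 and 103 CPM in CR and at 49.0 and 48.5 CPM in obese, with intervals of the ratio that held 1.

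Summed over all kept cells, most UMIs of the 34 genes lay in the stromal gates, which held 17.3% of CR and 2.09% of obese cells. The median gene had 87.4% of its UMIs there in CR and 79.0% in obese. Timp2 was the lowest in both, with 49.6% in CR and 7.45% in obese. In obese, Fn1 (16.1%), Igfbp4 (14.2%) and Timp1 (32.6%) also had under 50% of their UMIs in stromal gates, against 53.0%, 67.8% and 73.6% in CR. Macrophages held 67.0% of the Fn1 UMIs, 79.5% of the Igfbp4 UMIs and 88.1% of the Timp2 UMIs of the obese library, against 32.4%, 22.8% and 42.7% in CR.

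Of 61 other matrix genes, 56 passed the filter in fibroblast-gated cells, with a median log2 ratio of CR over obese of −0.08. The laminin chain Lama4 was at least 2-fold lower in CR, at 87.7 CPM against 188 CPM in obese, and Tgfbi at least 2-fold higher, at 57.2 against 24.9 CPM. In leukocytes 54 passed, with a median of 0.41. Fbln2, Bgn, Postn, Serpinh1 and Mmp14 were at least 2-fold higher in CR leukocytes, beside 1.42% of all genes tested. Mmp19, a metalloproteinase, was the only one at least 2-fold lower, at 13.6 CPM in CR and 35.9 CPM in obese leukocytes, beside 0.233%. None of the 61 was past 4-fold with 5 CPM added to each side, which pulls ratios of genes at a few CPM towards 1. Without it, the CR over obese ratio was 13.7 for Adamts2 (7.63 to 26.3) and 0.556 for Col23a1 (0.262 to 1.07). These calls thus do not show how many of the 61 differ at low levels. In macrophages Mmp19 stood at 17.5 CPM in CR and 47.8 CPM in obese, and in T cells at 4.91 and 11.9 CPM.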

How the data were processed

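Single CD45+ cells of perigonadal VAT were profiled with the v2 Chromium 3′ chemistry, as 1 CR and 1 obese library. Per the labels and the study's methods, the authors used Cell Ranger with the mm10 genome, and the deposited counts are whole UMIs for each gene and barcode, not normalized. In the study's methods, barcodes with outlying high UMIs were dropped as possible doublets. Here barcodes above a UMI limit were dropped and mixed cells set aside, with a doublet score used only as an alternative. The sort for CD45+ cells precedes every value.

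A cell needed 200 genes, and neither its mitochondrial share nor its log10 UMIs could exceed the library median by more than 3 scaled median absolute deviations. This left 83.9% of CR and 90.8% of obese barcodes. These limits removed 16.8% of CR and 4.40% of obese cells that the fibroblast gate takes without them, and 24.5% and 11.0% of macrophages. Each cell took the class with the highest mean of scaled log counts (99th percentile set to 1) among 16 lists of markers outside the 34 genes (150 markers, 4 of them not used here), with at least 3 markers detected. Cells whose stromal and leukocyte scores were within 1.5 times of each other were called mixed and set aside. UMIs were summed per gate and library and given as CPM with exact Poisson intervals. Log2 ratios had 5 CPM added to each side and exact conditional intervals, for genes with at least 20 UMIs in both groups together. A 2-fold ratio was the call, and the floor is 3 UMIs. All intervals are at 95% and cover counting error only. Cells are not replicates, so no test was made.

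Values are given in full for the 3 highest members of each stromal gate, those past 2-fold between CR and obese and those that differ between leukocyte classes, and by counts and ranges for others. Other matrix genes were a list of 61. The members and lists were chosen with earlier results of these data known. The gates and the ratio intervals were tested on simulated cells drawn from the gates' own profiles. No free RNA or doublets were added to them, so the tracer and stromal ratio steps were not tested. Coordinates are from GENCODE M21 (GRCm38) by gene ID and promoter windows from RefSeq. Alternatives were other pseudocounts, totals, TMM factors, filters, gate settings, clusters built without the 34 genes (named by markers, or by the gate of most of their cells where under 3 markers passed) and the removal of cells with high doublet scores. Python 3.11.15 was used with numpy 2.4.6, scipy 1.17.1, pandas 2.3.3, leidenalg 0.10.2 and matplotlib 3.10.9.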

Additional observations from a re-analysis of the deposited data

Results flagged for a closer look

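For 11 of the 34 genes the CR over obese ratio had opposite signs in the cell types compared, lower in fibroblast-gated cells and higher in leukocytes, with both counting intervals off 0 and at least one past 2-fold. The share of all genes that meet this rule was not computed, so whether 11 of 34 is unusual was not tested. Whether the ratios differ beyond library-to-library spread was not tested, since there is 1 library per group. The log2 ratios in fibroblast-gated cells and in leukocytes were −0.77 and 1.85 for Col3a1, −0.47 and 2.00 for Sparc, and −0.71 and 1.34 for Igfbp6. They were −0.40 and 1.63 for Col1a2, −0.49 and 1.41 for Col1a1, and −0.17 and 1.65 for Clec3b. They were −1.03 and 0.73 for Fbn1, −0.52 and 1.20 for Col4a1, and −0.38 and 1.25 for Col6a1. For Mfap5 they were −0.33 and 1.27, and for Col6a2 −0.55 and 1.02. Beside these, the fibroblast-gated share of kept cells was 5.59 times as high in CR as in obese and the tracer in leukocytes 5.99 times, and the part of these in the leukocyte ratios was not tested.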

How the results depend on the processing

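Of 167 values under other settings, 127 were scored as staying near the reported value and 40 as moved. Shares and log2 ratios were scored by the counting interval of the reported value. Counts of genes were scored by fold, so that 19 becoming 28 was scored as staying. A turn of sign was scored only for log2 ratios of at least 1 in size. None of the summed ratios reached that, so this score could not show a turn. The summed log2 ratio of CR over obese in fibroblast-gated cells, −0.04 as reported, was 0.00218 with the mean of per-cell CPM, −0.0181 after thinning to 1500 UMIs, −0.0761 with totals without ribosomal, mitochondrial and haemoglobin genes, 0.023 with TMM factors, 0.0793 in clusters without the members, −0.0609 without the highest doublet scores and −0.0616 with a mixed margin of 3. That sum is thus near 0 throughout and its sign is not fixed. In endothelial-gated cells (−0.51) it was −0.40 with per-cell CPM, −0.33 thinned, −0.34 with TMM, −0.42 without high doublet scores and −0.59 with the wider margin. In leukocytes (0.53) it was 0.63 with per-cell CPM, 0.66 thinned, 0.31 with TMM, 0.66 with no filter on mitochondrial share and UMIs, 0.57 at 5 median absolute deviations, 0.49 with at least 4 markers, 0.50 without high doublet scores, 0.44 without stromal marker UMIs, 0.46 with under 10 tracer UMIs and 0.49 with the wider margin.

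The 2 genes at least 2-fold lower in fibroblast-gated cells of CR became 1 after thinning, and 0 with TMM factors, with no filter, with at least 4 markers and in clusters without the members. The 19 genes past 2-fold in leukocytes became 5 with 20 CPM added to each side, 28 with 1 CPM added and 22 after thinning. The 6 genes that differ between leukocyte classes became 2 at a call of 4-fold. The 4 genes above the stromal ratio became 7 in leukocytes without stromal marker UMIs, with Col6a3, Mgp and Igfbp6 added. The tracer is lower in those cells, which by itself raises the quotients. The endothelial share of CR cells (6.63%) was 8.30% in clusters, and the fibroblast shares (9.34% in CR and 1.67% in obese) were 6.90% and 1.27% with the wider margin. The median gene's share of UMIs in stromal gates (87.4% in CR and 79.0% in obese) was 92.6% and 91.4% in clusters and 66.3% and 61.9% with the wider margin. In obese it was also 73.5% with no filter, 74.5% at 5 median absolute deviations and 83.9% without high doublet scores.

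The wider margin, the naming of clusters by gate, the limit of 10 tracer UMIs and the stromal ratio in leukocytes without stromal marker UMIs were chosen after seeing the data, as were the splits by Pi16, Dpp4, Ccl21a, Lyve1, Folr2, Ccr2, Fcgr4 and Lef1. No paired analysis was possible because each group is 1 library. The obese endothelial and mural gates held 19 and 2 cells, which limits every obese value there. Batch, day and mouse cannot be told apart from the group.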
